A study of Mus musculus with 12 samples.

Results

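The genes described here are 7 genes that sensory neurons turn on after their axons are injured and while these regrow: Atf3, Sprr1a, Sox11, Gap43, Gpr151, Ecel1 and Flrt3. They were taken by symbol, and all 7 are among the 22609 gene symbols counted in each of the 12 libraries. The RNA came from trigeminal ganglion (TG) neurons that innervate the tongue, labeled from the tongue with wheat germ agglutinin (WGA), a lectin that travels back along axons to the cell body, and sorted for bright label. The mice were athymic nude Balb/c mice, 6 to 8 weeks old per the study's methods, in 4 groups of 3 libraries: normal males (MN), tumor-bearing males (MT), normal females (FN) and tumor-bearing females (FT). Tumor-bearing mice had received 350000 HSC3 cells, a line of human oral squamous cell carcinoma, in the tongue. The labels state that normal mice received no cells, whereas the study's methods state that they received a human oral keratinocyte line, and the sources used here do not settle which holds. WGA was injected on day 13, at 0.5% per the labels and 1% per the methods, and the ganglia were taken on day 15 in all 4 groups. A normal library pooled 4 ganglia of 2 mice and a tumor library pooled 4 ganglia of 4 mice, taken from the injected side only, so the number of mice and the side differ with the tumor. Athymic mice lack mature T cells, and a sort on label brightness keeps any cell that carries the label, neuron or not.

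When a peripheral axon is cut or crushed, the cell body of the sensory neuron starts a transcription program that supports survival and regrowth. Its regulators include Atf3, a stress-induced transcription factor that intact sensory neurons hold at low levels, and Sox11, a transcription factor of developing neurons. Its effectors include Gap43, a membrane protein of the growth cone, and Sprr1a, a small proline-rich protein of the cornified envelope of skin that injured neurons also make and that promotes axon outgrowth. Gpr151 is an orphan G protein-coupled receptor, Ecel1 a membrane protein of the neprilysin family of endopeptidases that is strongly induced by nerve injury, and Flrt3 a leucine-rich repeat membrane protein of cell adhesion and neurite outgrowth. Taking out a ganglion cuts the axon of each neuron in it, and this was done in all 4 groups.

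Between 4592891 and 8922011 reads per library were counted on genes. Values are given as CPM, the count of a gene per 1000000 of these reads, or as RPKM (CPM per kilobase of exon) where genes are compared with each other. The 10 markers of sensory neurons were detected in all 12 libraries. Their sums were between 15843 and 16763 CPM in MN, 15971 and 17226 CPM in MT, and 14285 and 15233 CPM in FN. All FN sums were thus below all sums of both male groups. In FT 1, FT 2 and FT 3 the sums were 16402, 8607 and 18692 CPM. Tubb3, Prph and Uchl1 were between 1564 and 6006 CPM in all libraries, whereas Avil and Pirt varied more, from 242 to 1526 and from 485 to 2070 CPM. The libraries FN 2, FT 2 and FT 3 stood apart from the other 9 in mapping and in likeness. Multi-mapped reads made up 56.0%, 68.4% and 52.6% of all their reads against 43.0% to 45.5% in the other 9, and their highest rank correlation with any of the 9 across 13835 genes was 0.850, 0.811 and 0.908, whereas the lowest among the 9 was 0.971.

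Per length of exon, Gap43 was the most abundant of the 7 genes, with a mean of 273 RPKM over the 12 libraries, a level above that of 98.8% of 17568 genes ranked. Atf3 and Sprr1a followed at 87.5 and 65.6 RPKM. Sox11, Flrt3 and Gpr151 were lower, at 14.7, 10.9 and 10.7 RPKM. Ecel1 was near the limit of detection, at 0.459 RPKM, with 3 counts in MN 2 and 0 counts in FT 2, where 0 counts allow up to 0.653 CPM. The spread of a gene across the libraries did not follow its level. After 0.5 was added to each CPM, the highest library of Sprr1a stood 90.9-fold above the lowest, a wider range than that of 99.9% of 13710 genes, and Gpr151 spanned 20.2-fold, wider than 98.1% of these genes. Gap43, the most abundant, spanned 3.39-fold, wider than 36.3% of them. Over the 9 libraries without the 3 that stood apart, the ranges of Sprr1a and Gpr151 were 29.4-fold and 5.71-fold, still wider than those of 99.9% and 98.4% of genes.

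**Figure D1:**
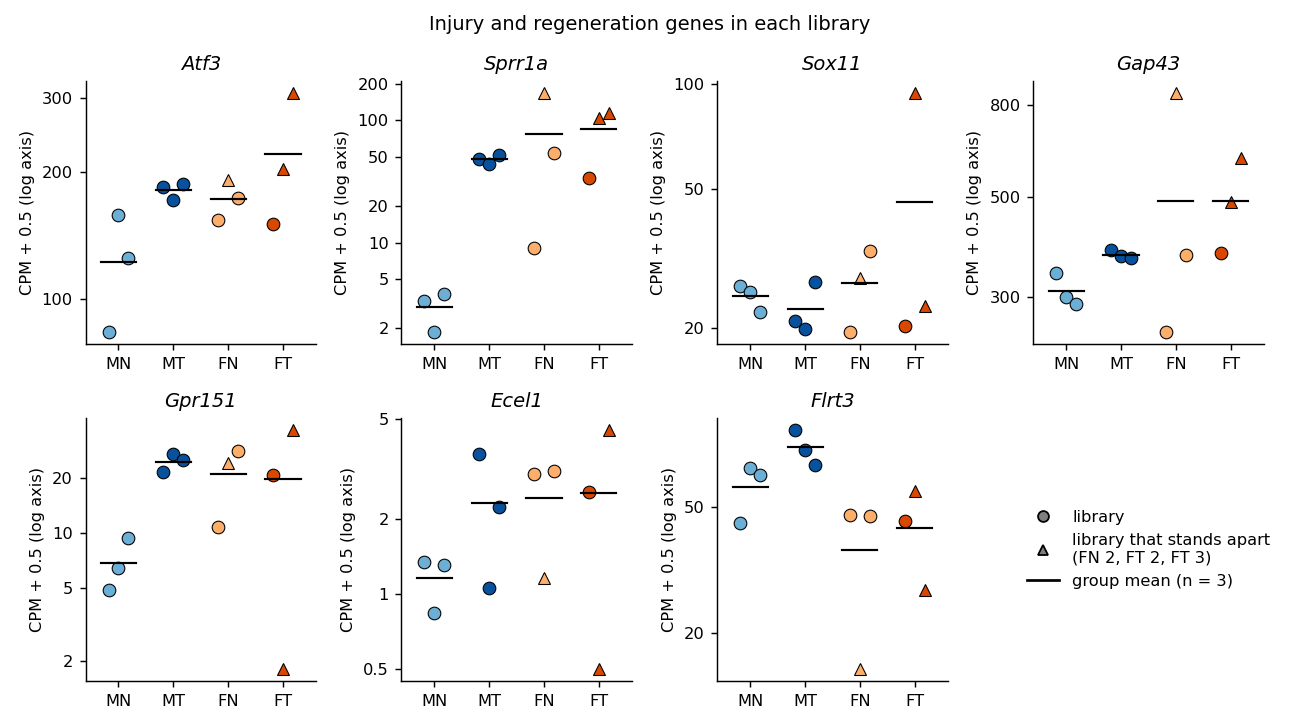
CPM plus 0.5 (log axis) of each of the 7 genes in the 12 libraries, by group, where points are libraries, triangles are the 3 libraries that stood apart and bars are group means of 3 libraries. Sprr1a and Gpr151 are low in all 3 MN libraries and high in all 3 MT libraries, and at least 1 female group spreads more widely than both male groups for each gene.

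All 7 genes lie on the minus strand in mm9, the build of the counts, by the GENCODE M1 annotation. Atf3 is at chr1:192994175-193007219, Sprr1a at chr3:92287877-92289816, Sox11 at chr12:28025562-28027574 and Gap43 at chr16:42248555-42340764. Gpr151 is at chr18:42737674-42739306, Ecel1 at chr1:89044230-89053096 and Flrt3 at chr2:140476650-140497205. All are protein-coding genes. Flrt3 lies within Macrod2, a gene of the opposite strand, and the use of strand in counting is not given in the sources used here, so reads of these genes cannot be told apart where their exons meet.

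The first question is whether these genes differed between lingual neurons of tumor-bearing and normal males (MT versus MN). Sprr1a and Gpr151 rose in MT, and no member fell. The values of Atf3, Gap43 and Flrt3 were higher in each MT library than in each MN library by smaller amounts that did not pass the test, and those of Sox11 overlapped. Counts of these 6 libraries were fitted with edgeR and tested by its quasi-likelihood F-test, with p-values adjusted over all 13322 genes tested by the Benjamini-Hochberg method and a threshold of 0.05. It called 2 of the 6 members it tested, against 0.0450% of all genes tested (6 of 13322). By the study's own criteria (more than 1.5-fold difference, RPKM averaging above 5 and an unadjusted p below 0.05), applied here to edgeR p-values, Sprr1a and Gpr151 passed as well, against 0.878% of genes. The count is given here as a description, since the genes were proposed with these data known. Nothing in a bulk library tells more cells that express a gene from more RNA per cell, and this holds for each difference given below.

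Sprr1a had the larger difference, and the study names it first among its top genes upregulated in MT. Its level was 2.81, 1.35 and 3.33 CPM in MN 1, 2 and 3, from 20, 12 and 29 counts, and 47.9, 43.3 and 51.6 CPM in MT 1, 2 and 3, from 381, 312 and 418 counts. The 3 MT libraries lay within 1.19-fold of each other, and the lowest of them was far above the highest MN library. The means were 47.6 ± 4.14 CPM in MT and 2.50 ± 1.03 CPM in MN (SD, n = 3 each), a fitted 19.4-fold difference, or 4.27 on the log2 scale (SE 0.24, edgeR adjusted p = 7.14e-05). In a fit of all 12 libraries, which lets the 3 that stood apart set a shared spread, the difference was 4.27 (SE 0.92) and its edgeR adjusted p was 1. In that fit with 9 libraries it was 0.0368, and it stayed under 0.05 with any one of the 6 male libraries left out.

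Since Sprr1a had the widest range of the 7, its promoter is shown. These are the 250 bases before its RefSeq start in GRCm38, chr3:92485882-92486131, minus strand, 5′ to 3′, in which capitals mark matches to the AP-1 motif TGACTCA or its reverse complement.
Sprr1a: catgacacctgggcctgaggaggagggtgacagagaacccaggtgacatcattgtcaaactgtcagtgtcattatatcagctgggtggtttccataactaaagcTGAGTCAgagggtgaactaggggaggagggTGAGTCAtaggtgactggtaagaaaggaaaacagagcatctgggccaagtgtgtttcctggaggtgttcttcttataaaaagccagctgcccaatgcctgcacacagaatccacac
Both matches read TGAGTCA and begin 146 and 116 bases before the start. AP-1 is the motif bound by dimers of Jun, Fos and related factors, a family whose members also pair with Atf3. The same 250 bases occur in mm9 at chr3:92289804-92290053. The RefSeq promoter table, with 250 bases before and 50 after each start, held 5 of the 7 members. In the windows of Atf3, Sox11, Ecel1 and Flrt3 there was no match to AP-1, to the CRE motif TGACGTCA or to the STAT motif TTCNNNGAA on either strand. Of all 32851 promoters in the table, 5.20% held AP-1, 1.79% CRE and 8.30% STAT, and a match of letters describes the window and is no evidence of binding.

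Gpr151 was the other member that passed. It was at 4.36, 5.94 and 8.84 CPM in MN 1, 2 and 3, from 31, 53 and 77 counts, and at 21.0, 26.4 and 24.3 CPM in MT 1, 2 and 3, from 167, 190 and 197 counts. The groups did not overlap. The means were 23.9 ± 2.72 CPM in MT and 6.38 ± 2.27 CPM in MN (SD, n = 3 each), a fitted 3.75-fold difference, or 1.91 on the log2 scale (SE 0.24, edgeR adjusted p = 0.0234). This call was close to the threshold. The adjusted p was 0.156 without MN 1, 0.238 without MN 2 and 0.186 without MT 2, and 1 and 0.0866 in the fits of 12 and 9 libraries, with the log2 difference between 1.71 and 2.21 over all 15 alternatives.

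Among the regulators, Atf3 was at 82.7, 158 and 124 CPM in MN 1, 2 and 3 and at 184, 171 and 186 CPM in MT 1, 2 and 3. The MT libraries lay within 1.09-fold of each other and above the widely spread MN libraries, and the log2 difference of 0.58 (SE 0.19) did not pass (edgeR adjusted p = 0.564). Sox11 was at 26.0, 24.9 and 21.8 CPM in MN and at 20.5, 19.4 and 26.5 CPM in MT, with overlapping groups and a log2 difference of -0.11 (SE 0.16, edgeR adjusted p = 0.918). The Sox11 libraries of both groups interleaved.

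Of the growth cone and surface proteins, Gap43 was at 339, 299 and 290 CPM in MN 1, 2 and 3 and at 381, 369 and 365 CPM in MT 1, 2 and 3. All MT values were above all MN values, by a log2 difference of 0.28 (SE 0.10, edgeR adjusted p = 0.597). Flrt3, at 43.7, 65.7 and 62.2 CPM in MN and 86.9, 75.0 and 67.0 CPM in MT, also had no overlap, with the lowest MT library just above the highest MN library and a log2 difference of 0.43 (SE 0.17, edgeR adjusted p = 0.701). Ecel1 did not pass the filter on low counts here. It had 6, 3 and 7 counts in MN and 25, 4 and 14 counts in MT, or 0.661 ± 0.282 and 1.81 ± 1.30 CPM (SD, n = 3 each), and its groups overlapped. In all, 5 of the 7 members had each MT library above each MN library, against 5.91% of all genes tested.

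**Figure D2:**
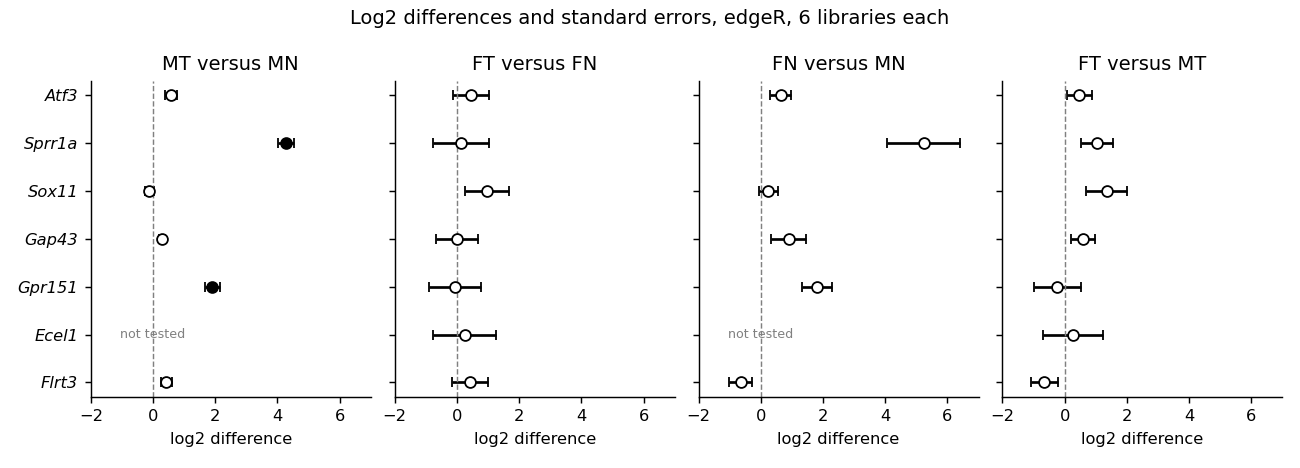
Log2 difference of each gene in the 4 comparisons of groups, with bars of 1 standard error, from edgeR fits of 6 libraries each, where filled points passed an adjusted p of 0.05. Only Sprr1a and Gpr151 in MT versus MN are filled, and the bars are longer in the comparisons that hold FN or FT libraries.

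The same genes were then compared between normal females and normal males (FN versus MN), with genes on X and Y left out of the test. No member passed, though Sprr1a and Gpr151 were higher in each FN library than in each MN library. Sprr1a was at 8.55, 167 and 53.7 CPM in FN 1, 2 and 3, from 68, 1281 and 392 counts, a 19.6-fold range within 1 group. The lowest of these was above the highest MN library, at 3.33 CPM. The fitted log2 difference was 5.23 with an SE of 1.18 (edgeR adjusted p = 0.633). Gpr151 was at 10.3, 23.6 and 27.3 CPM in FN 1, 2 and 3, above the 8.84 CPM of the highest MN library, with a log2 difference of 1.81 (SE 0.49, edgeR adjusted p = 0.633). Of 12893 genes tested, 0 were called at an adjusted p under 0.05, which is 0%, and 742 (5.76%) had an unadjusted p under 0.05. The 3 FN libraries were above the 3 MN libraries for 9.71% of genes tested. By the study's criteria Sprr1a and Gpr151 passed, as did 3.27% of genes. The study, which used DESeq, also lists Sprr1a among its top genes higher in FN than in MN.

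This result depended on FN 2. Without it, edgeR called 2 of the 7 members tested, Sprr1a with a log2 difference of 3.59 (adjusted p = 0.00340) and Gpr151 with 1.49 (adjusted p = 0.0304), beside 732 of 13178 genes (5.55%). With all 6 libraries DESeq2 called Sprr1a alone of the members (adjusted p = 3.10e-05). Limma-voom with sample quality weights, fitted to all 12 libraries, called Sprr1a, Gpr151 and Ecel1. The background of these calls was 0.308% of genes with DESeq2 and 5.91% with limma-voom. MT versus MN and FN versus MN share the 3 MN libraries, the lowest of all for Sprr1a, so the pair of differences is not independent.

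Among the other members, Atf3 was at 153, 191 and 173 CPM in FN 1, 2 and 3, and the lowest of these was below MN 2 (log2 difference 0.64, SE 0.35, edgeR adjusted p = 0.633). Gap43 was at 250, 848 and 372 CPM, with FN 1 below the MN libraries and FN 2 and FN 3 above them. The log2 difference of Gap43 was 0.90 with FN 2 (SE 0.56) and -0.043 without it. Flrt3 was at 46.5, 14.9 and 46.3 CPM, lowest of the 12 libraries in FN 2, with a log2 difference of -0.65 (SE 0.37, edgeR adjusted p = 0.633). FN 2 was thus the highest library of all for Sprr1a and Gap43 and the lowest for Flrt3. Sox11 was at 19.0, 27.3 and 32.9 CPM and Ecel1 at 2.51, 0.652 and 2.60 CPM, both with overlapping groups.

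Between tumor-bearing and normal females (FT versus FN), no member passed and no member had groups that did not overlap. Of 13408 genes tested, 0 were called (0%), and 159 (1.19%) had an unadjusted p under 0.05, none of them a member. DESeq2 and limma-voom also called 0 genes. Groups did not overlap for 2.29% of all genes. With edgeR p-values, the study's criteria were met by 0 members and 0.753% of genes. The study itself, which used DESeq, lists Sprr1a among the genes upregulated in FT versus FN. The mean RPKM that it prints for Sprr1a in FN and in FT are both below the means of the 3 libraries here. They lie close to the means without FN 2 and FT 2, so the set of libraries may differ as well as the method. Sprr1a was at 33.1, 105 and 114 CPM in FT 1, 2 and 3, inside the FN range of 8.55 to 167 CPM, with a log2 difference of 0.12 (SE 0.90). Its sign depended on the library left out, since the log2 difference was -0.42 without FN 1 and 1.79 without FN 2. Gpr151 was at 20.2, 1.31 and 36.0 CPM in FT 1, 2 and 3, the lowest and the highest of all 12 libraries both being FT libraries, with a log2 difference of -0.06 (SE 0.83) that was 0.41 without FT 2 and 0.11 in the fit of 9 libraries.

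The FT libraries that stood apart did so in different members. FT 2 had 93.8 CPM of Sox11, where the other 11 libraries had between 19.0 and 32.9 CPM, and it had the lowest Gpr151, from 6 counts, and no Ecel1 read. FT 3 had the highest Atf3, Gpr151 and Ecel1 of all libraries, at 308, 36.0 and 4.04 CPM. The log2 difference of Sox11 in FT versus FN was 0.97 (SE 0.70) with FT 2 and -0.37 without it. FT 1, the FT library that was like the other 9, was at 150 CPM for Atf3, 33.1 CPM for Sprr1a, 19.8 CPM for Sox11 and 374 CPM for Gap43. Its 20.2 CPM of Gpr151, 2.06 CPM of Ecel1 and 44.6 CPM of Flrt3 complete the set. For Sprr1a and Gpr151 these values lay between those of FN 1 and FN 3, the FN libraries that did not stand apart.

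For tumor-bearing females against tumor-bearing males (FT versus MT), again no member passed. Of 12846 genes tested 0 were called (0%), while 1231 (9.58%) had an unadjusted p under 0.05, none of them a member, and DESeq2 called 191 genes (1.13%). The study's criteria were met by 0 members and 7.21% of genes. Sprr1a was at 33.1, 105 and 114 CPM in FT against 43.3 to 51.6 CPM in MT, with libraries of FT on both sides of MT (log2 difference 1.05, SE 0.52, edgeR adjusted p = 0.522). In the fit of 9 libraries, with FT 1 alone for its group, the difference was -0.58. Flrt3 was the only member whose groups did not overlap, at 44.6, 55.5 and 26.8 CPM in FT 1, 2 and 3 against 67.0 to 86.9 CPM in MT, a log2 difference of -0.65 (SE 0.43, edgeR adjusted p = 0.561). All libraries of FT were below all of MT in 9.79% of genes tested. The log2 differences of the other members were 1.35 for Sox11 (SE 0.67), 0.58 for Gap43 (SE 0.39), 0.47 for Atf3 (SE 0.41), 0.28 for Ecel1 (SE 0.97) and -0.25 for Gpr151 (SE 0.76). The direction of each of these turned with the libraries used. Without FT 2 the difference was -0.027 for Sox11 and 0.28 for Gpr151, and without FT 3 it was -0.68 for Ecel1. In the fit of 9 libraries it was -0.22 for Sox11, -0.047 for Gap43 and -0.32 for Atf3.

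Whether the effect of the tumor differed between the sexes was tested as the difference of the differences, FT minus FN less MT minus MN, in 1 fit of 12 libraries. No member passed, and of 13835 genes tested 0 were called (0%), with 203 (1.47%) at an unadjusted p under 0.05. DESeq2 and limma-voom called no member. The value was -4.16 on the log2 scale for Sprr1a (SE 1.18, edgeR adjusted p = 1.00), the only member with an unadjusted p under 0.05. It was -2.05 for Gpr151 (SE 0.98, edgeR adjusted p = 1.00), and between -1.29 and 1.11 for the other 5. The female values were thus not shown to differ from the male values in their response, nor to be alike.

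By group means, the order of Sprr1a was MN, MT, FN and FT, and of these neighbours only MN and MT did not overlap. Gap43 and Flrt3 also had 1 pair of neighbours without overlap, again MN and MT, which for Flrt3 were the highest groups. For Atf3, Sox11, Gpr151 and Ecel1, all neighbours in the order of means overlapped.

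The wider injury response was read from 39 other genes known to rise in sensory neurons after axotomy, a list without the 7 members. In MT versus MN, 31 of the 34 tested had higher values in MT and 3 lower, and 1 passed the test. Their median log2 difference was 0.26, against 0.00 over all genes tested, of which 50.6% were higher. The one that passed was Gal, the neuropeptide galanin, at 61.4, 41.6 and 63.7 CPM in MN 1, 2 and 3 and 253, 273 and 326 CPM in MT 1, 2 and 3. No MT library came near the MN range, and the log2 difference was 2.37 (SE 0.15, edgeR adjusted p = 0.000142). In edgeR fits that share a spread with female libraries, the log2 difference of Gal was again 2.37 with 12, 10 and 9 libraries. It was not called there, with an edgeR adjusted p of 1 with 12 libraries and 0.921 with 10. Limma-voom with sample quality weights, also on 12 libraries, did call it (log2 difference 2.37, limma-voom adjusted p = 0.00223). DESeq2 called 6 genes of the list (Cckbr, Cebpd, Csf1, Gal, Klf6 and Npy), beside 0.291% of all genes. Limma-voom called Cckbr, Cebpd and Gal, beside 0.340% of all genes.

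**Figure D3:**
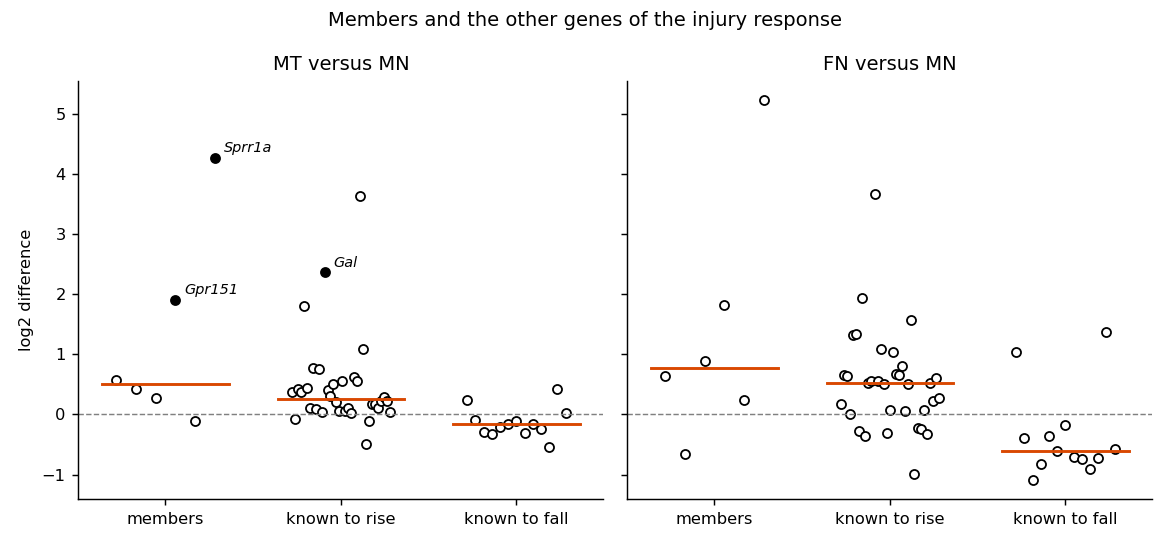
Log2 differences in MT versus MN and FN versus MN (edgeR, 6 libraries each) of the members tested, of the other genes known to rise and of the genes known to fall after axotomy, where points are genes, filled points passed an adjusted p of 0.05 and lines are medians. In MT versus MN the filled points are Sprr1a, Gpr151 and Gal, and the medians of the other lists are 0.26 and -0.16.

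By role, all 9 regulators of that list had higher values in MT, with 0 called and a median log2 difference of 0.17. Cebpd, a C/EBP transcription factor, had 0.77 (SE 0.14, edgeR adjusted p = 0.128) and Klf6, a zinc finger factor, had 0.56 (SE 0.13, edgeR adjusted p = 0.327), whereas Jun, the AP-1 factor, had 0.06 (SE 0.10) and Stat3 had 0.11 (SE 0.09). All 8 secreted factors tested were higher, with a median of 0.63, including Csf1, the macrophage growth factor that injured neurons release, at 0.75 (SE 0.16, edgeR adjusted p = 0.250). Of the surface proteins 7 of 8 were higher, and Cckbr, the cholecystokinin B receptor, had a fitted 3.48-fold difference (edgeR adjusted p = 0.217). The 5 genes of the growth cone and cytoskeleton had a median of 0.04, the lowest of the roles. In all, 9 of the 34 had each MT library above each MN library, against the 5.91% of genes given above.

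The 13 genes known to fall after axotomy, mostly receptors, channels and neurofilaments of intact sensory neurons, were lower in MT for 10 and higher for 3, with 0 called and a median log2 difference of -0.16. Each MT library was below each MN library for 6 of them, among them Scn11a, a sodium channel of nociceptors, at -0.53 (SE 0.12, edgeR adjusted p = 0.323) and Mrgprd, a receptor of nonpeptidergic nociceptors, at -0.33 (SE 0.12, edgeR adjusted p = 0.630). All MT were below all MN in 7.45% of genes tested. Tac1, the precursor of substance P, went the other way, at 0.42 (SE 0.12, edgeR adjusted p = 0.418).

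In FN versus MN, 26 of 33 genes of the rising list were higher and 0 were called, with a median log2 difference of 0.52 against 0.06 over all genes. This rested on FN 2. Without that library 21 of 33 were higher, the median was 0.058 against -0.00057 over all genes, and edgeR called Cebpd, Gal and Klf6 higher, beside the 5.55% of genes given above. In the fit of 9 libraries the median was 0.064. Of the falling list 11 of 13 were lower, 0 were called and the median was -0.61. Without FN 2, 11 of 13 were lower too and the median was -0.56, but 8 of the 13 were called, all lower. These were the neurofilaments Nefl, Nefm and Nefh, the potassium channels Kcna1 and Kcna2, the sodium channels Scn10a and Scn11a of nociceptors, and P2rx3, an ATP-gated channel of nociceptors. In the same fit without FN 2 all 10 markers of sensory neurons were lower too, with a median of -0.23 and 1 called, Avil. Markers of other cells called in that fit are given below, and the part of cell content in these calls was not tested. With all 6 libraries DESeq2 called Gal and Npy of the rising list and none of the falling list, beside 0.308% of genes. Limma-voom, on all 12 libraries, called 5 of the rising list and 6 of the falling list, beside 5.91% of genes.

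In FT versus FN the rising list split, 16 higher and 18 lower, with a median of -0.0087 against -0.031 over all genes and 0 called. Without FN 2 it was higher for 27 of 35, with a median of 0.36, and in the fit of 9 libraries for 19 of 34, with a median of 0.079. FT 1 against FN 1 and FN 3 alone, with 1 FT library, gave a median of 0.096 for the rising list and 0.27 for the falling list. Over all genes the median of that fit was -0.0020. In FT versus MT the rising list was higher for 20 of 34 (median 0.17 against 0.07), with 0 called by edgeR and 1, Basp1, by DESeq2. That direction turned as well, with 16 of 34 higher and a median of -0.092 without FT 3, and 12 of 34 higher and a median of -0.12 in the fit of 9 libraries.

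Markers of other cells of the ganglion moved with some of these groups, as did immediate early genes, a list chosen for the response to dissociation. The handling of the tissue itself was not measured. The 10 immediate early genes, such as Fos and Egr1, summed to between 980 and 1287 CPM in MN, 1429 and 1971 CPM in MT, 1812 and 2220 CPM in FN and 791 and 2691 CPM in FT, and all 10 had higher values in MT than in MN, with 0 called. The 10 macrophage markers, such as C1qa and Csf1r, summed to between 21.5 and 36.3 CPM in MN, 18.1 and 200 CPM in MT, 118 and 258 CPM in FN and 92.1 and 293 CPM in FT. Satellite glia markers such as Apoe and Fabp7 summed to between 4179 and 5031 CPM in MN, 3532 and 4919 CPM in MT, 8224 and 16478 CPM in FN and 6625 and 17937 CPM in FT. In FN versus MN without FN 2, edgeR called 7 of the 8 macrophage markers tested, all higher. It also called higher 4 of 6 markers of satellite glia, 4 of 6 of endothelial cells and 8 of the 10 immediate early genes. Of fibroblast markers 2 of 7 were called higher, and of repair Schwann cell markers 1 of 3 was called lower. None of the markers of myelinating Schwann cells, neutrophils or keratinocytes was called, beside 5.55% of all genes. The part of these cells and of handling in the differences of the 7 genes was not tested. Keratinocytes also make Sprr1a. Their 12 markers summed to between 6.43 and 6.73 CPM in MN, 7.22 and 9.75 CPM in MT, 6.03 and 20.9 CPM in FN and 13.6 and 17.6 CPM in FT. All MT sums were above all MN sums, and FN 2 was the highest library of all in this sum, as in Sprr1a. Only 2 of the markers passed the filter on low counts in MT versus MN. Both had a higher fitted value in MT, with overlapping groups and 0 called. Krt10, Krt1 and Lor had reads in every library, at 4.08 to 13.5, 0.629 to 4.05 and 0.112 to 4.44 CPM. Lor had 3 or fewer counts in 2 libraries, and Krt5, Krt4, Ivl and Sprr1b were at 0 counts in all 12. The part of keratinocytes in the Sprr1a differences was not tested.

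The genes whose levels ran most like each member were ranked by Pearson's r of log2 CPM over the 12 libraries, among genes with a mean of at least 10 CPM. These correlations describe 12 points that share groups and the 3 libraries that stood apart. For Sprr1a the most alike was Gal (r = 0.970 over 12 libraries and 0.994 over the other 9), followed by Timp1, a metalloproteinase inhibitor (0.932 and 0.926), and Mustn1 (0.884 and 0.849). In MN 2, which had the lowest Sprr1a, Gal was lowest too, and FN 2 had the highest of both. FN 1 was lower in both genes than FN 3, and FT 1 lay between FN 1 and FN 3 in both.

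For Gpr151 the most alike were Nfil3, a bZIP transcription factor (0.933 over 12 libraries and 0.899 over 9), Serpina3n, a serine protease inhibitor (0.931 and 0.970), and Sirt5 (0.923 and 0.857). Sprr1a and Gpr151 were weakly alike over 12 libraries (r = 0.418) and closely alike over the 9 (r = 0.960), the gap being set by FT 2, with 105 CPM of Sprr1a and 1.31 CPM of Gpr151, and by FN 2 and FT 3. The most alike to Flrt3 was Arpp21 (0.983 and 0.931). For Sox11 and Gap43 the most alike over 12 libraries, Ubqln2 (0.961) and Rhbdd3 (0.963), fell to 0.735 and 0.701 over the 9, and for Atf3 no gene reached 0.9 over 12 libraries, with Ndrg2 the highest (0.828 and 0.673). For Ecel1 it was Arsk (0.906 and 0.800), at few counts of Ecel1.

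**Figure D4:**
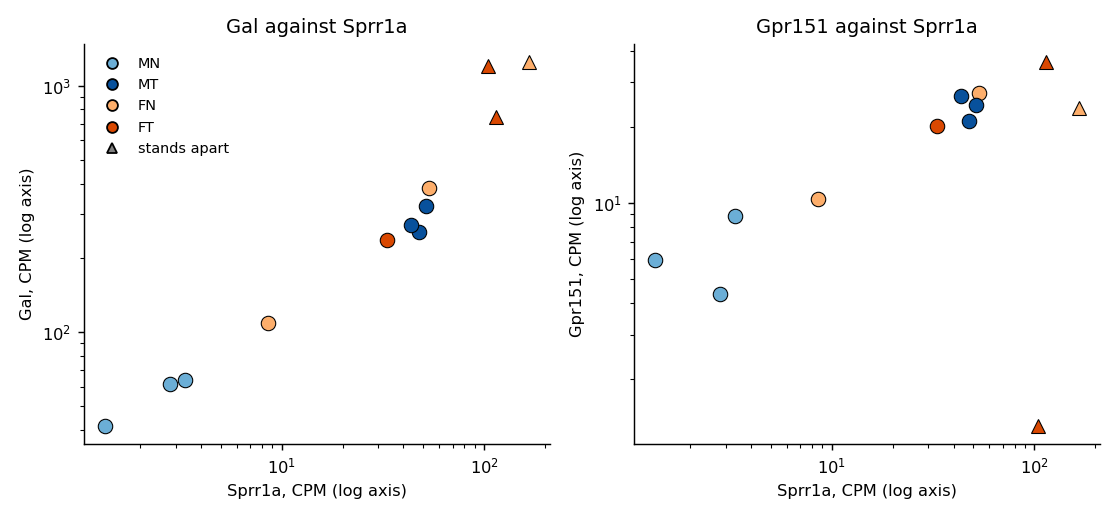
CPM of Gal and of Gpr151 (log axes) against CPM of Sprr1a (log axis) in the 12 libraries, colored by group, with the 3 libraries that stood apart as triangles. Gal runs with Sprr1a in all libraries (r = 0.970 on log2 CPM), whereas FT 2, with 1.31 CPM of Gpr151, lies far off the line of the other libraries on the right.

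Among the 7 members themselves, the r of log2 CPM over the 9 libraries was highest for Sprr1a with Gpr151 (0.960), Atf3 with Gpr151 (0.785) and Sprr1a with Gap43 (0.700). Over all 12 it was highest for Sprr1a with Gap43 (0.763), Gpr151 with Ecel1 (0.740) and Atf3 with Sprr1a (0.735). Sox11 was close to 0 with Sprr1a over the 9 (0.005) and with Gpr151 (-0.014), and Flrt3 had no r above 0.6 with any other member over the 9 libraries.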

How the data were processed

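Reads of 12 SMART-seq2 libraries (50-base single reads) were aligned by the authors to mm9 with TopHat2 and counted on genes with HTSeq, and the deposited values are whole counts per gene symbol without normalization. The submitters' processing notes also name CASAVA 1.8.2 and SAMtools; other versions, the annotation and the use of strand are not given in the sources used here. Between 76.3% and 88.8% of reads named no gene and were left out of library sizes. Each library was a pool of ganglia of its own, per the labels.

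CPM were computed from reads counted on genes, and RPKM with GENCODE M1 exon lengths, found for 95.7% of symbols. Tests used edgeR 4.0.16 in R 4.3.3 (TMM, filterByExpr with a minimum count of 10 and total of 15, glmQLFit, glmQLFTest, Benjamini-Hochberg over all genes tested), on the 6 libraries compared, or on 12 libraries for the difference between the sexes. Standard errors were taken as the log2 difference over the root of F. DESeq2 1.42.0, on the same libraries as edgeR, and limma 3.58.1, on all 12 libraries in each comparison, were alternatives. The scripts were tested on simulated data. Replicate numbers were checked for pairing, which the check could not settle, and the main fits took the libraries as unpaired. The members, the lists, the choice of fit and most alternative settings were chosen with earlier results of these data known. Named were all 7 members, genes of the lists of 39 and 13, and for each member the 3 genes with the highest r; only some of these are printed. Promoter sequences are from RefSeq (GRCm38.p6) and matched 5 of the 7 members.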

Additional observations from a re-analysis of the deposited data

How the results depend on the processing

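The calls of members were few and depended on which libraries set the spread. For MT versus MN, edgeR called 2 members with the 6 male libraries and 0 in the fits of 12 and of 10 libraries. It called 1 to 2 when a library was left out. Limma-voom, on all 12 libraries, called 2. For FN versus MN, edgeR called 0 with 6 libraries and 0 to 2 when a library was left out. There DESeq2 called 1, and limma-voom, on all 12 libraries, called 3. Counts over all genes moved too: for MT versus MN from 6 to 51 with DESeq2, 47 with limma-voom and 20 without the filter on low counts, and 2 to 34 with a library left out. In FT versus FN, FT versus MT and the difference between the sexes, no alternative called a member.

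For same-numbered libraries, deviations from the group means were correlated across genes. The r was 0.026 to 0.199 between MT and MN and -0.352 to 0.571 between FT and FN. Libraries with different numbers were not compared in this way, so it is not settled whether replicate numbers pair samples. With the replicate number as a block, 2 members were called in MT versus MN and 0 in the other comparisons; over all genes the calls went from 6 to 12 in MT versus MN and from 0 to 21 in FT versus MT.

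The sign of a log2 difference that passed in neither fit changed in the following cases. In FT versus FN these were Atf3 (-0.12 in the fit of 9 libraries and -0.10 with only those libraries of the 2 groups, an alternative chosen after seeing the data), Sox11 (-0.18 with 10, -0.38 with 9 and -0.36 with the added fit), Gpr151 (0.70, 0.11 and 0.13, and 0.40 with limma-voom), Flrt3 (-0.30, -0.051 and -0.034, and -0.16 with limma-voom) and Ecel1 (-0.30 with 9, -0.29 with the added fit, -0.27 with limma-voom and -0.25 with the block). Gap43 in FT versus FN stood at -0.012 with 12 libraries, -0.016 with DESeq2 and -0.016 with its size factors, -0.0011 by library size only and -0.0018 without the filter. In FN versus MN, Sox11 was -0.052 with limma-voom, and Gap43 was -0.048 with 10 and -0.047 with 9 libraries and -0.073 with limma-voom.

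In FT versus MT the fit of 9 libraries and the added fit gave -0.32 for Atf3 in both, -0.58 for Sprr1a in both, -0.22 for Sox11 in both and -0.047 and -0.046 for Gap43. The fit of 10 gave -0.029 for Sox11 and 0.28 for Gpr151, and the block -0.13 for Ecel1. In the difference between the sexes, the fit of 10 gave 0.035 for Atf3, -0.066 for Sox11 and 0.50 for Gap43, the fit of 9 gave -0.27 for Sox11, limma-voom gave 0.46 for Gap43, and Flrt3 was 0.044 with DESeq2 and 0.049 with its size factors. The cause was not tested.

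With a library left out, the log2 difference in FT versus FN ran from -0.42 to 1.79 for Sprr1a, -0.37 to 1.39 for Sox11, -0.36 to 0.96 for Gap43, -1.05 to 0.41 for Gpr151 and -0.80 to 0.74 for Ecel1. In FN versus MN Gap43 ran from -0.043 to 1.26. In FT versus MT it ran from -0.027 to 1.76 for Sox11, -1.13 to 0.28 for Gpr151 and -0.68 to 0.97 for Ecel1. The difference between the sexes ran from -0.42 to 0.11 for Atf3, -0.26 to 1.52 for Sox11, -0.65 to 0.60 for Gap43 and -0.45 to 0.25 for Flrt3. Where 9 libraries were used, FT had 1 library, assumed to vary like the others. With 3 libraries a group, an exact permutation test of 3 against 3 cannot go below p = 0.1, so single genes rest on the spread shared across genes, and Ecel1, with 0 to 29 counts, is limited by depth.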
